A study of Malus hupehensis with 9 samples.

Results

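The region studied here is the stretch of apple chromosome 10 around the columnar locus, with its flanks on both sides. A gene was a member when its identifier lay between MD10G1170000 and MD10G1199999, and identifiers of this form carry the chromosome number after MD and then a number that rises along it. The table held 219 such genes of 39951 in all. The core, MD10G1180000 to MD10G1190000, held 65 of them, the flank before it 74 and the flank after it 80. The file pairs no identifier with a gene name or a position, so genes are given by identifier and order, and the region could not be checked against named genes of the locus.

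Polyadenylated RNA came from phloem, the sugar-conducting part of the bark, of 3 rootstocks at bud break, with 3 libraries for each. PYTC is labelled wild type and is Malus hupehensis, an Asian crab apple. A1d is a mutant of M. hupehensis that is partly insensitive to gibberellin, and the altered gene is not named. QZ1 is a columnar hybrid of M. hupehensis Rehd. as mother with CO, a columnar line of Malus × domestica Borkh., as father. The tissue and the stage were the same in the 3 groups, and the labels give neither tree ages nor whether the replicates were separate trees. The p-values are therefore set by how far these libraries vary, and that variation may be technical. In QZ1 the columnar locus comes with a whole paternal genome of another species, so effects of the locus and of the rest of that genome cannot be told apart. Reads can also be lost where a rootstock's sequence differs from the reference, in PYTC and A1d as well as in QZ1. The part of this in the results, including genes read in QZ1 and not in PYTC, was not tested.

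Columnar apples carry a dominant allele at a locus on chromosome 10, known as Co, and grow as an upright stem with short side branches. The allele is known for the insertion of a retrotransposon between genes. A neighbouring gene for a dioxygenase, an enzyme of a family that includes gibberellin-modifying enzymes, is known to be expressed in columnar trees in tissues where it is normally silent. Gibberellins are hormones known to drive stem elongation. These statements are background, and no identifier of the table was matched to that gene.

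The values are FPKM, reads scaled by gene length and library size, so levels can be compared between genes. Library totals, computed from the steps between the values, were 15684510 to 18022986 reads. Library A1d replicate 1 stood apart, with 107 of the 219 genes of the region listed at 0 against 38 to 53 in the other 8 libraries. Of 110 genes with at least 1 FPKM in each of those 8 libraries, 12 were at 0 in A1d replicate 1, which is 10.9%, beside 10.6% of such genes over the whole table. The 12 had a median length of 955.5 bases and the other 98 one of 1764. Among the tested genes of the region, A1d replicate 1 differed from the mean of A1d replicates 2 and 3 by a median of -1.36 on the log2(FPKM + 1) scale below 1000 bases and 0.22 at 2000 bases or more. Fold changes involving A1d that were called, or were among the largest of the core or the flanks, are therefore given with and without this library.

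Of the 219 genes, 138 (63%) were expressed enough to be tested, which took 1 FPKM or more in 3 or more libraries. Another 68 had reads but missed that level, and 13 were at 0 in every library. In the core 37 of 65 genes (56.9%) were tested, against 101 of 154 (65.6%) in the flanks and 66.4% over the whole table. The core genes at 0 in every library were MD10G1180300, MD10G1185100, MD10G1185400, MD10G1185600, MD10G1186400, MD10G1187600, MD10G1188700 and MD10G1189800. A count of 0 allows up to 3 reads in a library, so these genes were not detectable at this depth rather than shown to be silent. The tissue label could not be checked against phloem markers, for want of gene names. In bulk RNA, fewer cells of a type and less RNA per cell cannot be told apart.

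Levels in the region were moderate, and the highest stood in the flanks. The median FPKM of the tested genes lay between 11 and 13.5 in the 9 libraries, whereas over all tested genes of the table it lay between 7.35 and 9.65. In the core 1 of the 37 tested genes had a mean above 50 FPKM over the 9 libraries, and in the flanks 9 of 101 did.

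The leading flank genes were MD10G1171800 before the core and MD10G1192100, MD10G1195700 and MD10G1198300 after it. MD10G1171800 had 727, 307 and 292 FPKM in PYTC replicates 1, 2 and 3, 80.0, 260.0 and 198 in A1d and 171, 173 and 182 in QZ1. MD10G1192100 had 616, 256 and 243 FPKM in PYTC, 97.4, 273 and 175 in A1d and 134, 124 and 154 in QZ1. MD10G1198300 had 716, 422 and 185 FPKM in PYTC, 153, 204 and 183 in A1d and 129, 117 and 153 in QZ1. In these 3 genes PYTC replicate 1 was the highest of the 9 libraries, and the QZ1 libraries lay below each PYTC library. None of them passed the test for QZ1 against PYTC, with limma adjusted p-values of 0.15, 0.0988 and 0.0531.

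MD10G1195700 had 534, 275 and 183 FPKM in PYTC, 260.0, 366 and 301 in A1d and 230.3, 235 and 241 in QZ1. Each QZ1 library was below each A1d library, both groups lay within the range of PYTC, and again PYTC replicate 1 was the highest (limma adjusted p = 0.578 for QZ1 against A1d). MD10G1170400, the first gene of the region, was even across the study, with 104, 135 and 128 FPKM in PYTC, 119.8, 118 and 137 in A1d and 124, 145 and 131 in QZ1. Summed over the region, FPKM was 4899, 3629.7 and 3218 in PYTC, 2593, 3349 and 3160.5 in A1d, and 3093, 2891 and 3099 in QZ1. Over the core alone it was 561, 714 and 662 in PYTC, 491, 564 and 602 in A1d, and 619, 608 and 605 in QZ1, so the high sum of PYTC replicate 1 came from the flanks.

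**Figure D1:**
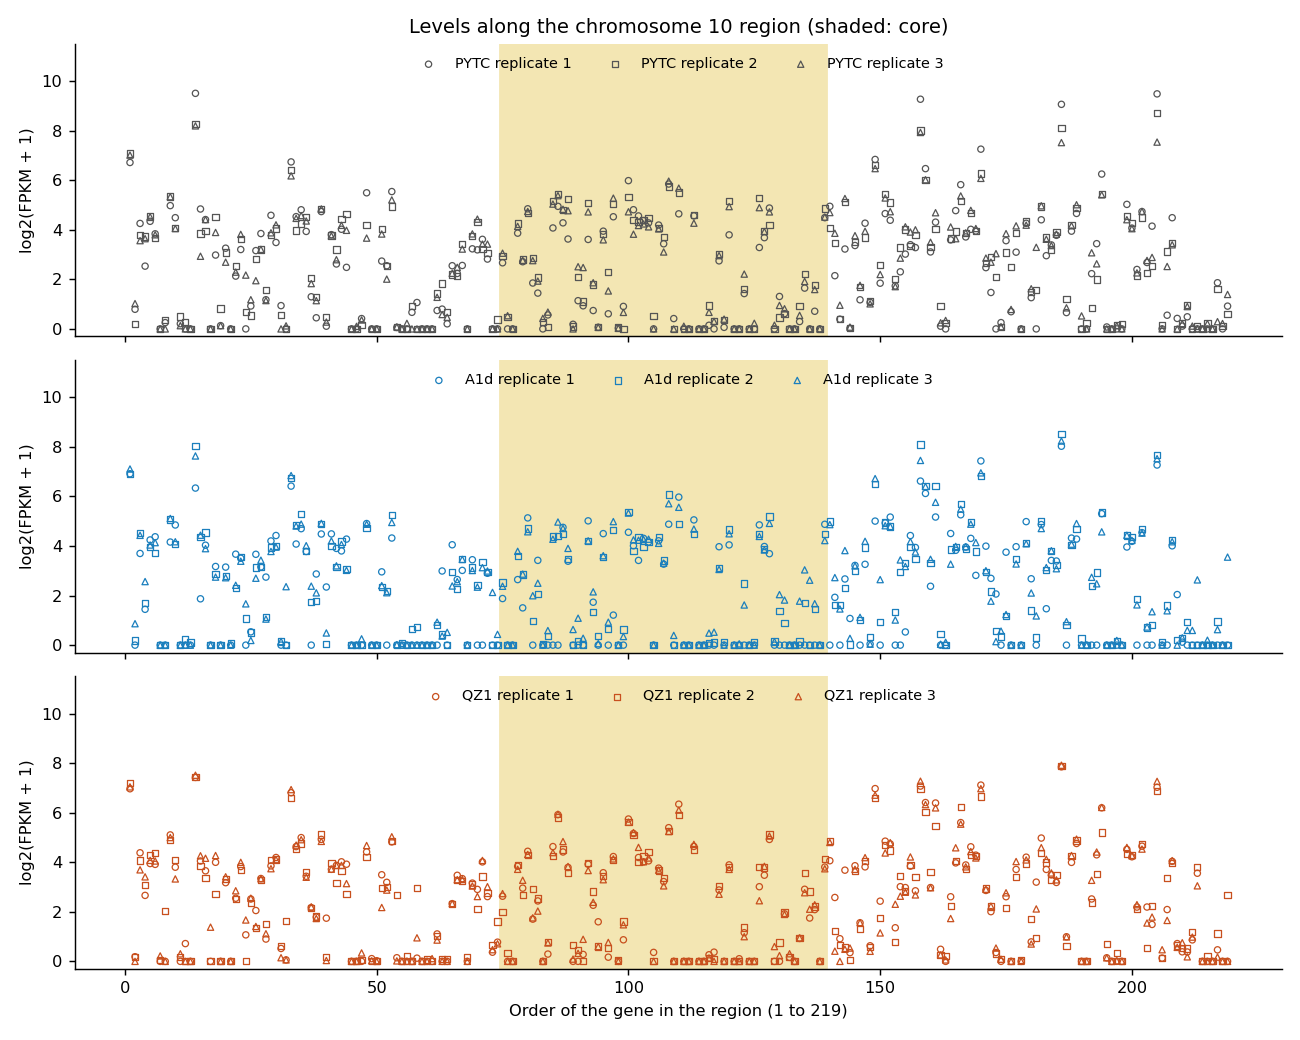
Level of each of the 219 genes, as log2(FPKM + 1), against its order in the region, in 3 panels for PYTC, A1d and QZ1 with 1 symbol per library; the core is shaded. The tallest points, among them MD10G1171800 and MD10G1198300 in PYTC replicate 1, stand in the flanks, and many A1d replicate 1 symbols lie at 0.

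The first comparison, of QZ1 with PYTC, puts the columnar hybrid beside its mother's species. A gene was called when its limma p, Benjamini-Hochberg adjusted over all 26510 genes tested, was under 0.05. In the region 7 of 138 tested genes (5.07%) were called, where 10.2% of all tested genes were. MD10G1173200, MD10G1178900, MD10G1192500 and MD10G1199200 were higher in QZ1, and MD10G1174400, MD10G1181800 and MD10G1193000 were lower. Of all tested genes 5.05% were called higher and 5.19% lower, where the region had 4 and 3 genes. Of the 7, MD10G1181800 lay in the core. That is 1 of 37 tested genes (2.7%) in the core and 6 of 101 (5.94%) in the flanks. The median log2 fold change, on the log2(FPKM + 1) scale used throughout, was -0.20 in the core, -0.02 in the flanks and -0.10 over all tested genes. No test of the core against the flanks was made, since neighbouring genes are not replicates.

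The largest change in the region was that of MD10G1199200, in the flank after the core. It had 10.8, 13 and 7.28 FPKM in QZ1, 0, 0 and 5.21 in A1d and 0, 0.0926 and 0 in PYTC. Each QZ1 library was above each library of the other groups, and in A1d all its reads came from replicate 3. With 362 reads in QZ1 and 1 in PYTC, the ratio after scaling by library totals was 338 (95% exact counting interval 60.3 to 13400). In limma's fit the log2 fold change came to 3.43 ± 0.64 SE, with an adjusted p of 0.0118, and the call held in each of the 19 alternatives, with adjusted p-values up to 0.0495. Against A1d the adjusted p was 0.0575, and 0.00126 without A1d replicate 3, where the log2 fold change went from 2.59 to 3.47. It was 2.15 without A1d replicate 1 (0.0996) and 2.15 without A1d replicate 2 (0.145).

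The gene before it in the table, MD10G1199100, was too low to be tested and is named after its values were seen. It had 0.824, 1.28 and 0.972 FPKM in QZ1, 0, 0 and 0.51 in A1d and 0, 0 and 0.0822 in PYTC. The 120 reads in QZ1 and 3 in PYTC gave a ratio of 37.4 (95% exact counting interval 12.5 to 184). As with MD10G1199200, A1d replicate 3 was the library of A1d with reads.

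MD10G1173200, in the flank before the core, was higher in QZ1 than in both other rootstocks. It had 4.72, 4.13 and 4.86 FPKM in QZ1, 0.898, 0.455 and 1.26 in PYTC and 0.45, 0.425 and 0.14 in A1d. The QZ1 libraries were close to each other and stood clear of the other 6. In limma's fit the log2 fold change against PYTC came to 1.59 ± 0.27 SE, with an adjusted p of 0.00832, and 2.06 ± 0.27 against A1d (adjusted p = 0.00439). Without A1d replicate 1 the latter was 2.12. Both calls held in each of the 18 alternatives that tested the gene, with adjusted p-values up to 0.0437 and 0.0494. The added 1 FPKM shrinks the change of so low a gene: at a pseudocount of 0.1 the log2 fold changes were 2.35 and 3.50, and with voom on recovered reads 2.48 and 3.86.

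MD10G1178900, also before the core, had 10.1, 8.66 and 8.84 FPKM in QZ1, 3.72, 3.37 and 4.6 in PYTC and 5.26, 3.77 and 4.91 in A1d. Here too the QZ1 libraries lay above the other 6. In limma's fit the log2 fold change against PYTC came to 1.06 ± 0.24 SE, with an adjusted p of 0.0255, and 0.86 ± 0.24 against A1d (adjusted p = 0.086). The call against PYTC was lost without PYTC replicate 2 (0.102) or 3 (0.0641) and without QZ1 replicate 1 (0.112), 2 (0.0737) or 3 (0.0965), these being adjusted p-values.

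MD10G1192500, after the core, was higher in QZ1 than in PYTC. It had 82.9, 43.2 and 72.3 FPKM in QZ1, 35, 84 and 53.4 in A1d and 18.8, 15.4 and 24.8 in PYTC. Each library of QZ1 and of A1d was above each PYTC library, and QZ1 and A1d overlapped. In limma's fit the log2 fold change in QZ1 came to 1.67 ± 0.35 SE, with an adjusted p of 0.0193, and 1.44 ± 0.35 in A1d, which missed the threshold (adjusted p = 0.0673). The QZ1 call was lost without PYTC replicate 2 (adjusted p = 0.0822) and without QZ1 replicate 1 (0.0801) or 3 (0.0803).

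The 3 genes lower in QZ1 than in PYTC were MD10G1174400, MD10G1181800 and MD10G1193000. MD10G1174400 had 14.3, 21.8 and 19.5 FPKM in PYTC, 12.8, 13 and 15.2 in A1d and 9.81, 11.3 and 9.52 in QZ1, with no overlap between QZ1 and the other groups. Its log2 fold change was the smallest of the 7, -0.79 ± 0.21 (SE; limma adjusted p = 0.0465). The adjusted p was 0.0665 and 0.0585 without A1d replicate 2 and 3, 0.175 and 0.159 without PYTC replicate 2 and 3, and 0.147, 0.0924 and 0.163 without QZ1 replicate 1, 2 and 3. Rescaling by the median of ratios gave 0.0508 and quantile normalization 0.052.

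MD10G1193000 fell in QZ1 against both other rootstocks. It had 5.09, 3.66 and 2.31 FPKM in QZ1, 11.1, 11.6 and 16.3 in PYTC and 21.7, 13.6 and 8.64 in A1d, and each QZ1 library was below the other 6. In limma's fit the log2 fold change against PYTC came to -1.60 ± 0.36 SE, with an adjusted p of 0.0248, and -1.69 ± 0.36 against A1d (adjusted p = 0.0352). The call against PYTC was lost without PYTC replicate 2 (adjusted p = 0.0766) or 3 (0.104), without QZ1 replicate 2 (0.0718) or 3 (0.101), and with voom on recovered reads (0.0946). The call against A1d was lost without any 1 of the PYTC libraries (0.052, 0.0651 and 0.0586), without A1d replicate 2 (0.0921), without any 1 of the QZ1 libraries (0.0697, 0.0963 and 0.142), with only the 6 libraries of QZ1 and A1d (0.104) and with voom (0.125). It held without A1d replicate 1, at -1.38 (0.0446).

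MD10G1181800, the core gene called against PYTC, had 1.2, 3.25 and 4.7 FPKM in PYTC, 0, 0.126 and 1.12 in A1d and 0, 0.376 and 0.251 in QZ1. The QZ1 libraries lay below the PYTC libraries, and so did those of A1d. In limma's fit the log2 fold change in QZ1 came to -1.65 ± 0.42 SE, with an adjusted p of 0.0397, and -1.49 ± 0.42 in A1d (adjusted p = 0.0991). The change in A1d was called without PYTC replicate 1 and with library weights. At 444 bases and levels of a few FPKM this gene rests on few reads, and the QZ1 call was lost at a pseudocount of 0.1 (adjusted p = 0.088) and with voom (0.112). It was also lost without PYTC replicate 2 (0.136) or 3 (0.144), A1d replicate 2 (0.0556), or QZ1 replicate 1 (0.135), 2 (0.0859) or 3 (0.115).

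**Figure D2:**
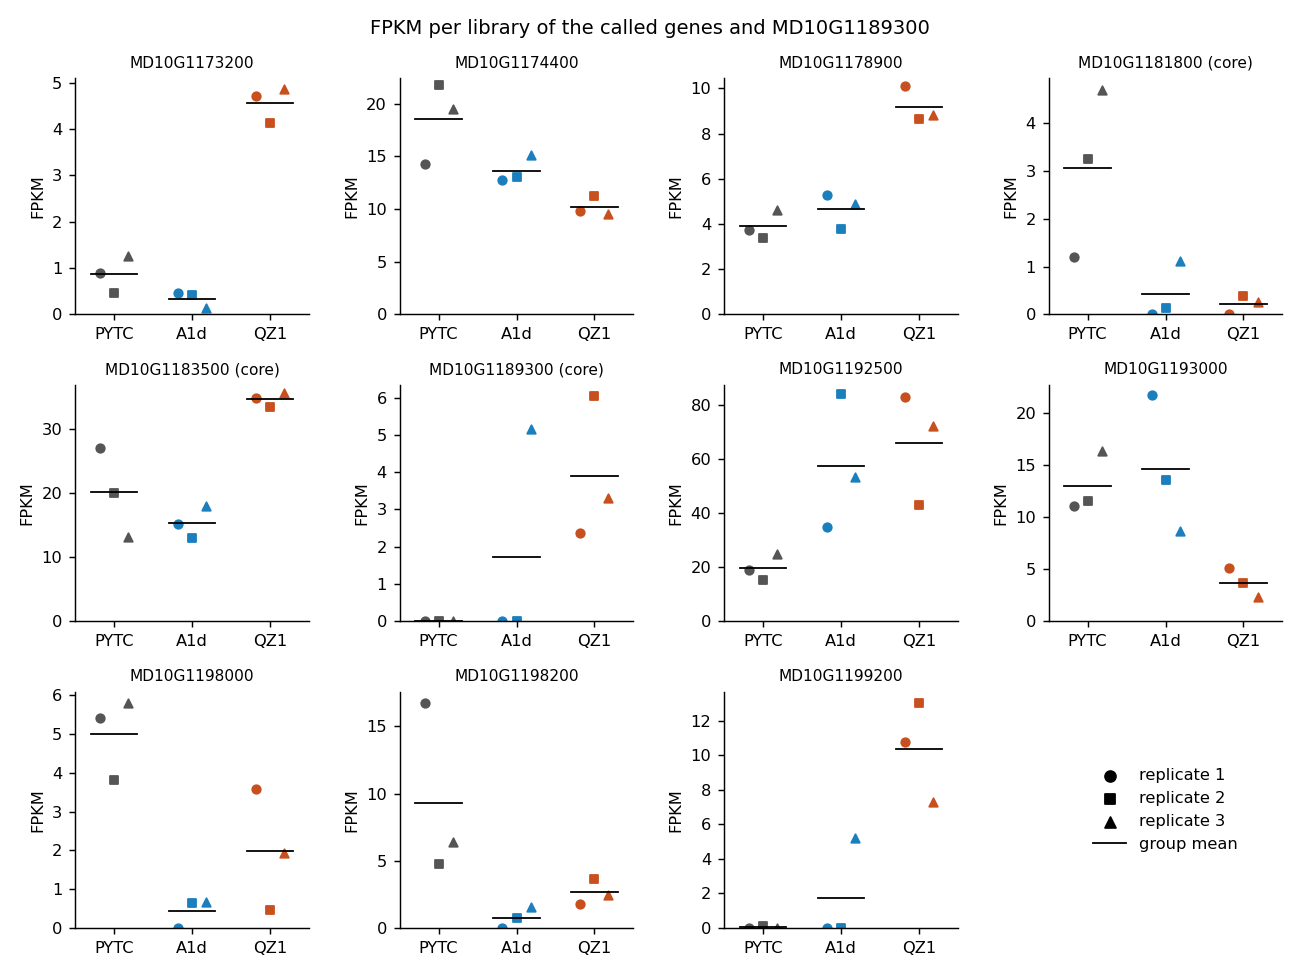
FPKM per library, from 0 on a linear axis, of the 10 genes called in any comparison and of MD10G1189300, with 1 panel per gene, symbols for the 3 libraries of each group and a line at the group mean. In MD10G1173200, MD10G1178900, MD10G1183500 and MD10G1199200 the QZ1 libraries lie above the other 6, and in MD10G1174400 and MD10G1193000 below them.

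The count of calls depended on single libraries, most on A1d replicate 1, which enters the shared estimate of the spread. Without that library 22 of the 138 genes (15.9%) were called for QZ1 against PYTC, 9 higher and 13 lower, and 24.3% of all tested genes were. Of these, 9 lay in the core (24.3% of its 37 tested genes) and 13 in the flanks (12.9%), and the 7 genes above were among the 22. The 9 were MD10G1180700, MD10G1181400, MD10G1181800, MD10G1183100, MD10G1183500, MD10G1184500, MD10G1188400, MD10G1189300 and MD10G1190000. Without PYTC replicate 1 the count was 14, beside 11.9% of all tested genes. It was 2 without PYTC replicate 2 or QZ1 replicate 3, beside 4.11 and 3.99% of all tested genes, 3 without QZ1 replicate 2, beside 5.85%, and 4 without PYTC replicate 3 or QZ1 replicate 1, beside 4.12 and 4.4%. With library weights 46 of 138 (33.3%) were called, beside 40.3% of all. Counted by libraries instead, the groups did not overlap in 17 of 37 core genes (45.9%) and 29 of 101 flank genes (28.7%), beside 41.2% of all tested genes. In the core 9 of the 17 were higher and 8 lower in QZ1.

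At the end of the core 4 genes that follow each other among those tested, MD10G1188400, MD10G1189000, MD10G1189300 and MD10G1189500, had each QZ1 library above each PYTC library. This run was picked after its values were seen, and none of the 4 passed the main test. MD10G1188400 had 2.78, 2.93 and 2.72 FPKM in QZ1, 0, 0.839 and 2.53 in A1d and 0.532, 0.51 and 0.758 in PYTC (limma adjusted p = 0.0927 for QZ1 against PYTC). MD10G1189000 had 6.51, 10.8 and 5.82 FPKM in QZ1, 0, 2.25 and 7.21 in A1d and 2.13, 3.63 and 2.77 in PYTC (adjusted p = 0.315). MD10G1189500 had 3.25, 3.63 and 3.87 FPKM in QZ1, 0, 1.73 and 2.19 in A1d and 0.638, 2.42 and 2.01 in PYTC (adjusted p = 0.313). A1d replicate 1 was at 0 in all 4 genes, and A1d replicate 3 was the highest A1d library in each. For QZ1 against PYTC, MD10G1188400 was called with quantile normalization, only the 6 libraries compared or library weights. It was also called without A1d replicate 1 or 3. MD10G1189500 was called with quantile normalization, and MD10G1189000 with only the 6 libraries compared.

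MD10G1189300, with the largest change of the core for QZ1 against PYTC, was the gene of the region that was on in every library of one rootstock, at 1 FPKM or more, and at 0 in every library of another. Of all genes measured, 1.03% did so. It had 2.36, 6.04 and 3.3 FPKM in QZ1, no read in PYTC, and 0, 0 and 5.15 in A1d. The 269 QZ1 reads put it at least 83.8-fold higher in QZ1 than in PYTC, taking 3 reads over the PYTC group as the floor. The limma adjusted p was 0.063, above the threshold. It was 0.0315 without A1d replicate 1, 0.00391 without A1d replicate 3, 0.00409 with the 6 libraries of QZ1 and PYTC alone and 0.0323 with voom on recovered reads. Between QZ1 and A1d the adjusted p was 0.284.

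Other genes read in one rootstock and not in another mostly had few reads. MD10G1176100, MD10G1179700 and MD10G1188600 had reads in the 3 QZ1 libraries and none in PYTC, with 7, 13 and 4 reads over QZ1. MD10G1172400, MD10G1186000 and MD10G1194700 showed the reverse, with reads in each PYTC library and none in QZ1. With MD10G1189300 the first pattern took in 4 of the 219 genes (1.83%), beside 1.85% of all genes, and the second 3 (1.37%), beside 1.11%. The last of these had 0.618, 4.6 and 0.724 FPKM in PYTC and was at 0 in A1d as well. The 4 genes read in every QZ1 library and in no PYTC library also had no read in A1d replicates 1 and 2. Of these, 2 had reads in A1d replicate 3, beside 52.8% of the 492 genes of the table with this pattern.

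The comparison of QZ1 with A1d puts the columnar hybrid beside the mutant. It called 3 of 138 genes (2.17%), beside 4.29% of all tested genes. MD10G1173200, described above, and MD10G1183500 in the core were higher in QZ1, and MD10G1193000 was lower. That is 2 and 1 genes, where 2.5% and 1.79% of all tested genes were called higher and lower. The libraries of the groups did not overlap in 42 of 138 genes (30.4%), beside 29.9% of all tested genes. The comparison shares its QZ1 libraries with QZ1 against PYTC, so the values stand side by side and are not independent. The median log2 fold change was 0.01 in the core, 0.06 in the flanks and 0.07 over all tested genes.

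MD10G1183500 had 34.8, 33.3 and 35.6 FPKM in QZ1, 15.1, 12.9 and 18 in A1d and 27.1, 19.99 and 13.2 in PYTC. The QZ1 libraries varied little and were above the other 6. The log2 fold change was 1.13 ± 0.25 against A1d (SE; limma adjusted p = 0.0422) and 0.81 ± 0.25 against PYTC (adjusted p = 0.0779). Against PYTC the gene was called without PYTC replicate 1, without A1d replicate 1 and with library weights. The call against A1d had an adjusted p of 0.0545 without A1d replicate 1, 0.116 without A1d replicate 2, 0.0748 without PYTC replicate 2, and 0.145, 0.113 and 0.159 without QZ1 replicate 1, 2 and 3. It was 0.0525 with voom, 0.0552 at a pseudocount of 0.1 and 0.0512 with no filter. Without A1d replicate 1 the fold change itself stayed at 1.13.

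Some of the largest fold changes between QZ1 and A1d came from genes at 0 in A1d replicate 1. MD10G1181400, whose mean over the 9 libraries was 37.6 FPKM, had 59.5, 55.1 and 60.4 FPKM in QZ1, 0, 20.04 and 30.3 in A1d and 29.9, 42.6 and 40.6 in PYTC. Its log2 fold change of QZ1 against A1d was 2.77 ± 1.05 SE, which missed the threshold (limma adjusted p = 0.182). Without A1d replicate 1 it was 1.21 and passed the test (adjusted p = 0.0197). The gene before it, MD10G1181300, had 23.8, 18.1 and 19.97 FPKM in QZ1, 0, 19.9 and 18.3 in A1d and 15.8, 34.6 and 31.9 in PYTC. Its log2 fold change against A1d went from 1.54 to 0.10 without that library, and did not pass the test in either case (adjusted p = 0.409 and 0.891).

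In the flank after the core MD10G1196800 had 18.7, 10.5 and 20.3 FPKM in QZ1, 0, 6.62 and 4.57 in A1d and 9.85, 2.99 and 5.18 in PYTC, with QZ1 above each other library. It missed the threshold against A1d, at 2.27 ± 0.72 SE on the log2 scale (limma adjusted p = 0.117), and 1.37 without A1d replicate 1 (0.111). MD10G1189000 of the run above had a log2 fold change of 1.50 ± 0.65 against A1d (adjusted p = 0.238). That became 2.23 without A1d replicate 3, which passed the test (adjusted p = 0.0458), and 0.71 without A1d replicate 1, which did not (0.371). Without A1d replicate 1 the comparison of QZ1 with A1d called 5 genes of the region, beside 5.45% of all tested genes, and without A1d replicate 3 it called 7, of which 4 were in the core, beside 6.09% of all. It called 1 gene without PYTC replicate 2 (2.6% of all tested genes), A1d replicate 2 (1.95%), or any 1 of the QZ1 libraries (1.34 to 2.35%), and 2 without PYTC replicate 1 (3.75%) or 3 (2.62%). With library weights it called 21 (15.2%), beside 15.8% of all.

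The comparison of A1d with PYTC puts the partly gibberellin-insensitive mutant beside its wild type. It shares its PYTC libraries with QZ1 against PYTC, so a gene lower in both A1d and QZ1 is not seen independently. It called 2 of 138 genes (1.45%), both lower in A1d, beside 3.07% of all tested genes and 1.67% of them called lower. The libraries of the groups did not overlap in 24 of 138 genes (17.4%), beside 24.2% of all tested genes. Without A1d replicate 1 it called 3 genes, beside 4.95% of all, and with library weights 18 (13%), beside 17.0% of all. Without PYTC replicate 1 it called 3, beside 4.32% of all. None of the 3 was called in the main test, and 2 lay in the core, MD10G1181600 and MD10G1181800. Without A1d replicate 3 or QZ1 replicate 1 or 2 it called 1, beside 2.46, 1.7 and 1.96% of all, and without A1d replicate 2, PYTC replicate 2 or 3 or QZ1 replicate 3 it called 0, beside 1.66, 1, 1.02 and 1.65%. With all 9 libraries and no weights, none of the 37 core genes was called by limma or by voom, and 4 (10.8%) had an unadjusted limma p under 0.05, beside 20.7% of all tested genes. With library weights 2 core genes were called, MD10G1181600 and MD10G1181800. The median log2 fold change was -0.10 in the core, -0.17 in the flanks and -0.16 over all tested genes. Quantile normalization moved the medians of the core and of all tested genes to 0.06 and 0.03, so no lean of the region is read from them.

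The 2 called genes, MD10G1198000 and MD10G1198200, follow each other in the table. MD10G1198000 had 5.41, 3.8 and 5.79 FPKM in PYTC, 0, 0.635 and 0.661 in A1d and 3.57, 0.464 and 1.92 in QZ1. MD10G1198200 had 16.7, 4.77 and 6.39 FPKM in PYTC, 0, 0.741 and 1.55 in A1d and 1.81, 3.68 and 2.45 in QZ1. In both genes A1d lay below PYTC in every library, with A1d replicate 1 at 0, and QZ1 also lay below each PYTC library.

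The log2 fold change of MD10G1198000 was -2.09 ± 0.44 (SE; limma adjusted p = 0.0391) and that of MD10G1198200 -2.47 ± 0.50 (adjusted p = 0.0352). Without A1d replicate 1 they were -1.85 (adjusted p = 0.0539) and -2.11 (0.046). MD10G1198000 also lost its call without A1d replicate 2 (0.078) or 3 (0.0653), PYTC replicate 1 (0.0682), 2 (0.111) or 3 (0.138), or QZ1 replicate 3 (0.0773). MD10G1198200 lost it without PYTC replicate 1 (0.0519), 2 (0.0658) or 3 (0.0931), A1d replicate 2 (0.0789), or QZ1 replicate 1 (0.0646), 2 (0.0576) or 3 (0.0708). Neither was called with voom (0.116 and 0.127), at a pseudocount of 0.1 (0.0985 and 0.092), with no filter (0.0627 and 0.0578) or with only the 6 libraries of A1d and PYTC (0.0623 and 0.132). Quantile normalization also ended the call of MD10G1198000 (0.075), and it called 3 genes of the region in all, 2 higher and 1 lower in A1d, beside 3.45% of all tested genes.

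MD10G1179300, close before the core, had the largest change of that flank for A1d against PYTC, with 8.13, 19.1 and 20.6 FPKM in PYTC, 0, 4.38 and 4.07 in A1d and 6.49, 3.29 and 5.13 in QZ1. The libraries of A1d and of QZ1 lay below each PYTC library. On the log2 scale A1d differed by -2.39 ± 0.64 SE, which missed the threshold (limma adjusted p = 0.0848), and by -1.60 without A1d replicate 1 (adjusted p = 0.0593). In the core MD10G1180800 had 2.61, 6.33 and 5.76 FPKM in PYTC, 0, 0.96 and 2.98 in A1d and 2.26, 6.53 and 2.38 in QZ1, and missed the threshold, with a log2 fold change of -1.51 (adjusted p = 0.179), or -1.01 without A1d replicate 1 (0.267). MD10G1181300 and MD10G1181400 had log2 fold changes of -1.87 and -2.14 in A1d, and -0.43 and -0.58 without A1d replicate 1.

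**Figure D3:**
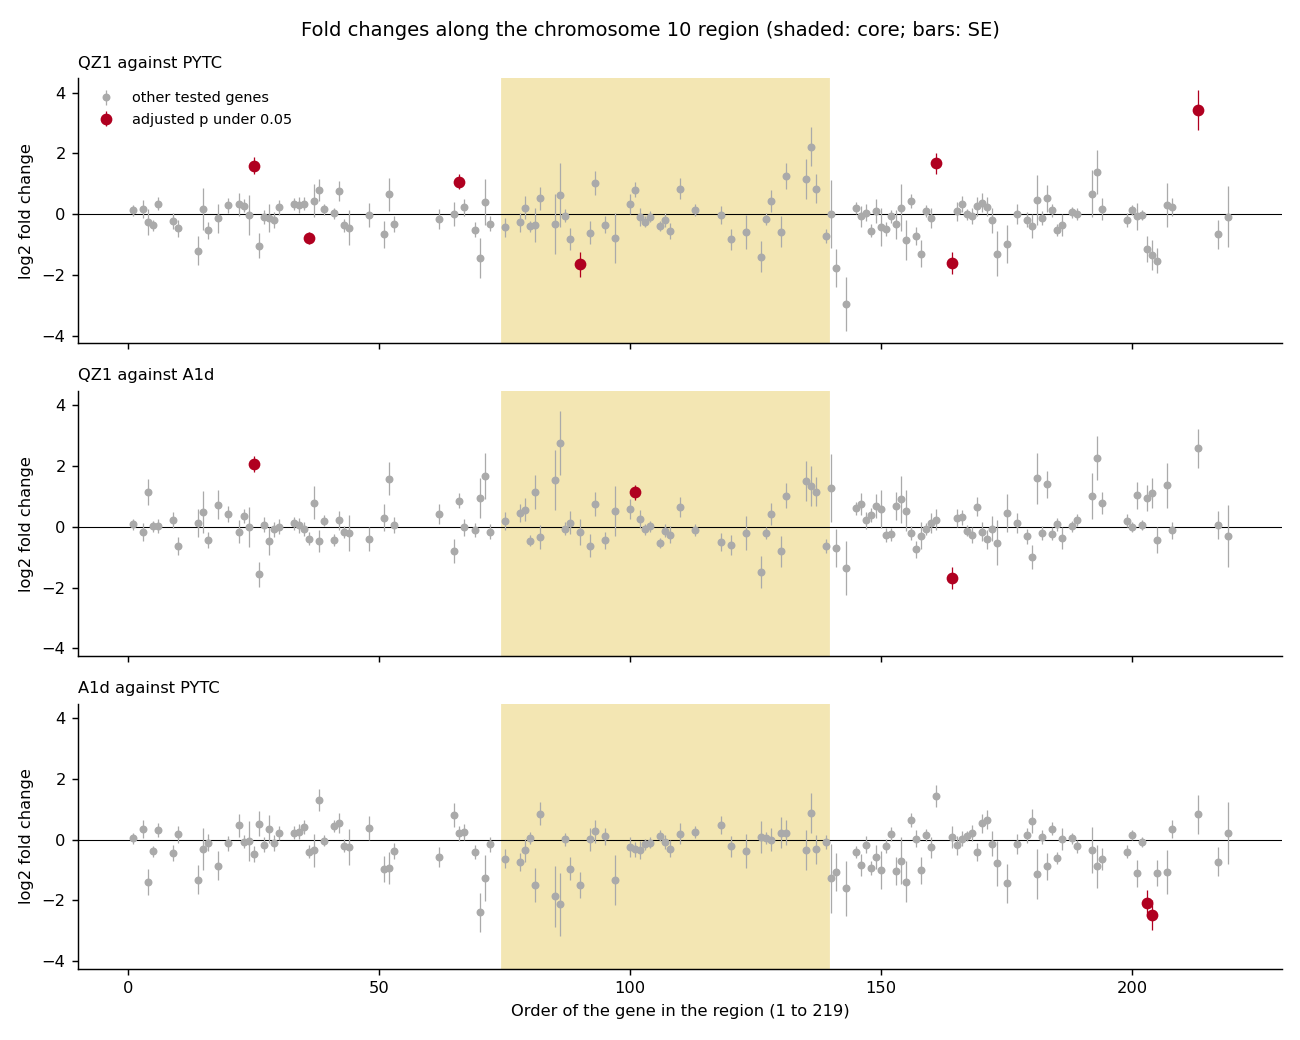
Log2 fold change, on the log2(FPKM + 1) scale with bars for the SE, of the 138 tested genes against their order in the region, in 3 panels for the 3 comparisons; called genes are red and the core is shaded. The panels from top to bottom hold 7, 3 and 2 called genes, with 1, 1 and 0 of them in the core, and the pair called for A1d against PYTC are neighbours.

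Read in order, the core opened with MD10G1180000, which had 5.36, 6.67 and 7.32 FPKM in PYTC, 2.68, 4.78 and 4.19 in A1d and 5.19, 3 and 5.66 in QZ1, with overlap between QZ1 and both other groups. The genes from MD10G1180400 to MD10G1181600 ranged in mean over the 9 libraries from 3.31 FPKM in MD10G1180800 to 37.6 in MD10G1181400. MD10G1180400 had means of 16.1 ± 2.29 FPKM in PYTC, 9.75 ± 3.98 in A1d and 13.1 ± 0.878 in QZ1 (SD, n = 3 each). MD10G1180500 had 5.77 ± 0.205, 4.78 ± 2.55 and 6.96 ± 1.61 FPKM in the same order. Neither was called in any comparison.

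MD10G1180700 had 27.8, 24.6 and 25.7 FPKM in PYTC, 34.1, 25.1 and 22.8 in A1d and 20.7, 18.8 and 18.9 in QZ1. Each QZ1 library was below the other 6, and its limma adjusted p was 0.223 against PYTC and 0.22 against A1d. MD10G1180700 was called for QZ1 against PYTC without A1d replicate 1 and with library weights. MD10G1180900 had 1.72, 3.2 and 2.81 FPKM in PYTC, 9.72, 3.2 and 4.65 in A1d and 4.42, 4.79 and 3.08 in QZ1, with A1d replicate 1 the highest library of the 9. MD10G1181500 had means of 24.3 ± 5.09 FPKM in PYTC, 24.1 ± 2.57 in A1d and 23.3 ± 3.8 in QZ1 (SD, n = 3 each), which overlapped.

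MD10G1181600 had 11.4, 37 and 26.3 FPKM in PYTC, 9.46, 10.2 and 14 in A1d and 12.9, 10.9 and 13.2 in QZ1. MD10G1182100 had 11.2, 32.7 and 25.4 FPKM in PYTC, 31.4, 17.4 and 17.5 in A1d and 14.1, 14.8 and 11.7 in QZ1. In both genes PYTC replicate 1 was the lowest of its group, and neither was called in the main test of any comparison. Without PYTC replicate 1, MD10G1181600 was called for QZ1 against PYTC and for A1d against PYTC. With library weights both genes were called for QZ1 against PYTC. MD10G1182200 had 0.671, 2.46 and 2.64 FPKM in PYTC, 2.32, 1.52 and 3.44 in A1d and 3.8, 6.05 and 4.22 in QZ1. Here QZ1 was above each other library, with a limma adjusted p of 0.133 against PYTC and 0.313 against A1d, neither of which passed. Quantile normalization called MD10G1182200 for QZ1 against PYTC.

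MD10G1182700 had means of 12.9 ± 1.67 FPKM in PYTC, 14.5 ± 6.17 in A1d and 9.91 ± 1.06 in QZ1 (SD, n = 3 each). MD10G1183100 had 22, 31.8 and 37.8 FPKM in PYTC, 1.32, 24.1 and 30.7 in A1d and 17.8, 15.9 and 16.6 in QZ1. A1d replicate 1 was far below the other libraries of MD10G1183100, and QZ1 lay below each PYTC library. The main test of QZ1 against PYTC, whose spread is shared with A1d, did not call MD10G1183100 (limma adjusted p = 0.614). The gene was called lower in QZ1 once A1d replicate 1 was dropped, and also when PYTC and QZ1 were fitted alone. Library weights called it too.

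The middle of the core, from MD10G1183400 to MD10G1185200, held the 3 genes of highest level in the core. MD10G1184700 led with 24, 44.6 and 50.3 FPKM in PYTC, 61.9, 28.3 and 46.3 in A1d and 80.2, 59.2 and 67.8 in QZ1 (limma adjusted p = 0.158 for QZ1 against PYTC, with each QZ1 library above each PYTC library). MD10G1184500 had 56.6, 52.8 and 61.4 FPKM in PYTC, 28.5, 66.7 and 51.3 in A1d and 41.1, 37.5 and 36.8 in QZ1, with QZ1 below each PYTC library (adjusted p = 0.253). MD10G1183400 had 62.3, 38.8 and 25.5 FPKM in PYTC, 22.5, 40.1 and 39.3 in A1d and 52.6, 48.5 and 48.1 in QZ1. QZ1 lay above each A1d library and within the range of PYTC (adjusted p = 0.607 against PYTC and 0.349 against A1d).

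Between these leaders stood genes of moderate and steady level. MD10G1183700 had means of 19.2 ± 1.19 FPKM in PYTC, 17.2 ± 2.28 in A1d and 16.1 ± 1.59 in QZ1 (SD, n = 3 each). MD10G1184000 had 18.8 ± 2.57, 17.4 ± 0.875 and 17.6 ± 2.37 FPKM in the same order. Both had groups that overlapped, with log2 fold changes of QZ1 against PYTC of -0.24 ± 0.18 and -0.08 ± 0.18 (SE). MD10G1183600 had means of 19.6 ± 2.8, 15.7 ± 5.28 and 18.5 ± 4.26 FPKM, MD10G1184400 of 9.81 ± 2.2, 9.08 ± 0.536 and 8.3 ± 1.03, and MD10G1185200 of 21.4 ± 2.73, 26 ± 5.64 and 23.7 ± 1.81 (SD, n = 3 each; PYTC, A1d and QZ1 in that order), and none of the 3 was called. MD10G1184300 had 16.1 ± 0.999 FPKM in PYTC, 17.8 ± 1.68 in A1d and 12.1 ± 0.459 in QZ1, lower in each QZ1 library than elsewhere but short of the threshold (limma adjusted p = 0.19 against PYTC and 0.129 against A1d).

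From MD10G1185900 to MD10G1190000 levels were mixed, from 0.926 FPKM over the 9 libraries in MD10G1188300 to 27 in MD10G1188000. MD10G1187800 had 8.75, 38.1 and 28.8 FPKM in PYTC, 27.9, 21.5 and 19.9 in A1d and 7.07, 13.1 and 4.46 in QZ1. PYTC replicate 1 lay among the QZ1 libraries, and the adjusted p for QZ1 against PYTC was 0.125, and 0.0178 without PYTC replicate 1. MD10G1186300 had 12.9, 34.7 and 29.6 FPKM in PYTC, 15.5, 24.3 and 21.6 in A1d and 13.9, 12.9 and 12.1 in QZ1 (adjusted p = 0.166), again with PYTC replicate 1 among the QZ1 libraries. It too was called for QZ1 against PYTC without PYTC replicate 1, and with library weights. MD10G1188000, with 28.4, 17.3 and 25.4 FPKM in PYTC, 11.9, 35.6 and 29.1 in A1d and 29.3, 33.8 and 32.3 in QZ1, was the fifth of the core in level. Each QZ1 library of MD10G1188000 was just above each PYTC library, and A1d overlapped with both.

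The other genes of this stretch showed no call in the main test. MD10G1185900 had means of 6.55 ± 0.755 FPKM in PYTC, 9.89 ± 4.16 in A1d and 6.4 ± 0.877 in QZ1, and MD10G1187900 of 13.5 ± 1.43, 14 ± 0.74 and 12.1 ± 1.7 (SD, n = 3 each). MD10G1187200 had 1.69, 2.06 and 3.63 FPKM in PYTC, 0, 4.61 and 2.08 in A1d and 1.23, 1.58 and 0.995 in QZ1, with QZ1 below each PYTC library (limma adjusted p = 0.59). MD10G1188300, a gene of 321 bases, had 1.48, 0.375 and 0.929 FPKM in PYTC, 0, 1.57 and 3.11 in A1d and 0, 0.693 and 0.173 in QZ1. With library weights it was called for QZ1 against A1d.

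The core closed with MD10G1190000, at 21.5, 28.1 and 21.8 FPKM in PYTC, 28.4, 21.5 and 17.6 in A1d and 13, 16.5 and 12.3 in QZ1. Each QZ1 library was below each library of the others, with a log2 fold change of -0.73 ± 0.23 against PYTC (SE; limma adjusted p = 0.0747). Among the core genes too low to be tested, MD10G1181900 reached the highest single value, 4.57 FPKM in PYTC replicate 3, and MD10G1182800 came next with 3.87 in PYTC replicate 2. The mean was lowest in QZ1 in 17 of the 37 tested core genes (45.9%), beside 30 of 101 in the flanks (29.7%) and 36.2% of all tested genes.

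**Figure D4:**
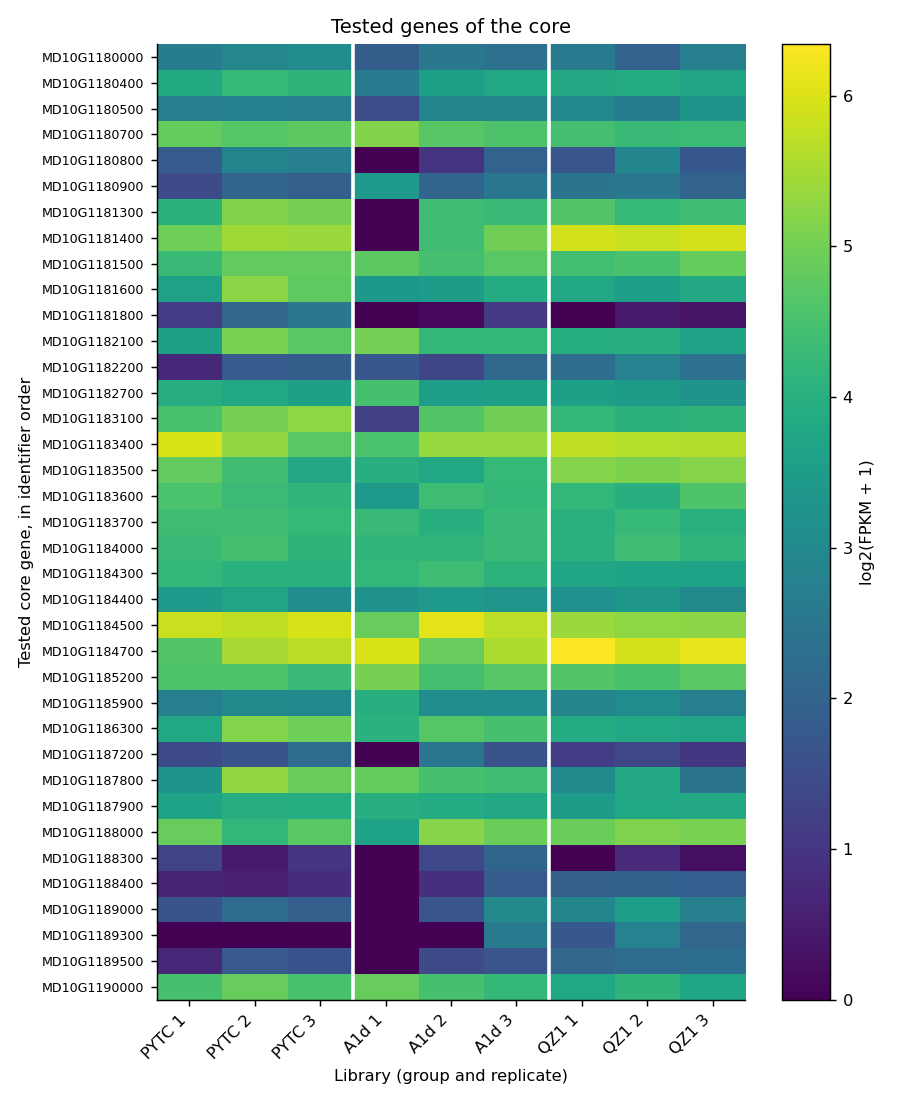
Level of the 37 tested core genes, as log2(FPKM + 1) by colour, in identifier order from top to bottom and by library from left to right, with white lines between the groups. MD10G1184700 and MD10G1184500 are brightest, MD10G1189300 is dark in the PYTC libraries and in A1d replicates 1 and 2, and 10 genes are at 0 in A1d replicate 1.

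Just after the core stood MD10G1190200 and MD10G1190400, which had the same length of 1521 bases by the recovered steps. MD10G1190400 had 8.34, 33.9 and 37.4 FPKM in PYTC, 5.37, 3.91 and 13.1 in A1d and 11.8, 0.476 and 0.402 in QZ1. MD10G1190200 had 3.43, 10.2 and 13.5 FPKM in PYTC, 2.81, 2.1 and 5.62 in A1d and 4.97, 1.32 and 0.329 in QZ1. In both genes PYTC replicate 1 was the lowest of its group and QZ1 replicate 1 the highest of its own. The log2 fold changes of QZ1 against PYTC were -2.96 ± 0.90 and -1.76 ± 0.63 (SE; limma adjusted p = 0.0692 and 0.112). That of MD10G1190400 passed the test without PYTC replicate 1 (0.046) or QZ1 replicate 1 (0.0199). If they are near-identical copies, the authors' counting could split their reads, so each value is uncertain on its own. The same holds for any overlapping or duplicated genes of the region, which cannot be recognised without positions.

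Beyond the genes already described, the flanks held 4 more of mean level above 50 FPKM, and none of them was called. MD10G1174100 had 106, 84.4 and 71.4 FPKM in PYTC, 84.6, 105 and 114 in A1d and 111, 96.4 and 121 in QZ1. MD10G1191200 had 114, 98 and 87.7 FPKM in PYTC, 31.1, 88.8 and 105 in A1d and 125, 96.2 and 104 in QZ1. MD10G1192300 had means of 71.5 ± 13.9 FPKM in PYTC, 79.1 ± 9.05 in A1d and 75.9 ± 10.2 in QZ1, and MD10G1193800 of 98.2 ± 46.7, 136 ± 31.9 and 120.5 ± 19.3 (SD, n = 3 each). In all 4 the groups overlapped, and in MD10G1191200 A1d replicate 1 was the lowest library.

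In the flank before the core 3 of 44 tested genes (6.82%) were called for QZ1 against PYTC, 1 (2.27%) for QZ1 against A1d and 0 for A1d against PYTC, where 5 (11.4%) had an unadjusted limma p under 0.05, beside 20.7% of all tested genes, and voom also called none. In the flank after the core the counts were 3 of 57 (5.26%), 1 (1.75%) and 2 (3.51%). The mean was lowest in A1d in 28 of 57 genes (49.1%) of the flank after the core, beside 36.8% of all tested genes, and 15 of the 57 (26.3%) were at 0 in A1d replicate 1, beside 21.3% of all. MD10G1173300, beside the called MD10G1173200 in the table, went the other way, with 3.15, 1.56 and 1.66 FPKM in QZ1, 11.7, 7.79 and 5.5 in A1d and 7.94, 6.07 and 2.86 in PYTC. It was not called (limma adjusted p = 0.066 against A1d and 0.144 against PYTC), and it is named after its values were seen, as is MD10G1199900. That gene, the last tested one, had 0.891, 0.509 and 1.62 FPKM in PYTC, 0, 0 and 10.7 in A1d and 0, 5.38 and 0 in QZ1, so that A1d replicate 3 and QZ1 replicate 2 alone exceeded 2 FPKM.

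Genes next to each other shared a direction about as often as elsewhere in the table. Of the 137 pairs of genes next to each other among those tested in the region, 70 (51.1%) had the same sign of fold change for QZ1 against PYTC, beside 54.8% for the table as a whole. In the core it was 20 of 36 pairs (55.6%). For QZ1 against A1d the share was 46.7% beside 52.7%, and for A1d against PYTC 53.3% beside 55.2%. Over the whole of chromosome 10, by identifier, 8.17% of 1690 tested genes were called for QZ1 against PYTC, 3.67% for QZ1 against A1d and 1.95% for A1d against PYTC, where the region had 5.07, 2.17 and 1.45%.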

How the data were processed

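The deposited table holds FPKM values by the authors, in 9 columns for 39951 genes, a unit taken from the name of the file. Per the labels, polyadenylated RNA was made into TruSeq Stranded mRNA libraries, and per the submitters' processing notes Trimmomatic trimmed the reads. Aligner, counter, build and annotation: not given in the sources used here. Columns were matched to samples by name.

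Whole reads, library totals and gene lengths were computed from the steps of the FPKM: all 37548 genes above 0 came out whole, to a tolerance of 0.0001 reads beyond rounding. A unit counted this way may be 1 read or a pair. Totals ran from 15684510 to 18022986 reads. Floors of 3 reads and 95% intervals cover counting error only.

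Values were tested as log2(FPKM + 1), which understates changes of low genes, with limma 3.58.1 in R 4.3.3 (empirical Bayes with trend, Benjamini-Hochberg over 26510 genes, all 9 libraries in 1 fit), on genes with at least 1 FPKM in at least 3 libraries. Alternatives were a pseudocount of 0.1, no filter or a minimum of 5 FPKM, library weights, scaling by median of ratios, fitting only the 6 libraries compared, quantile normalization, the replicate number as a block, voom on recovered reads, leaving out each library, and, chosen after seeing the data, leaving out A1d replicate 1 and PYTC replicate 1 together. Python 3.11.15 and scipy 1.17.1 did the rest. On simulated data the recovery of reads was exact for 99.84% of 20000 genes. The simulation for limma held no outlying library such as A1d replicate 1, so it did not cover the effect of that library on the calls. Named genes were those called, those on in one group and off in another, the 5 highest and the 3 most changed per comparison in core and flanks, and the ends of the core; others are described by position. Members and lists were chosen with earlier results of these data known. Marker and pathway lists were not used, since no names are paired with identifiers, so the tissue label was not checked.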

Additional observations from a re-analysis of the deposited data

How the results depend on the processing

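Numbers of genes called are given for the region and, after it, the core. For QZ1 against PYTC, 7 and 1 in the main test, they were 11 and 5 with quantile normalization (12.7% of all tested genes), 17 and 8 with only the 6 libraries compared (21.0%), 46 and 15 with library weights (40.3%), and 2 to 22 and 0 to 9 when 1 library was left out. The core count was 0 at a pseudocount of 0.1 and with a minimum of 5 FPKM, where 29 core genes were tested. For QZ1 against A1d, 3 and 1, they were 21 and 9 with library weights, 1 and 0 with voom on recovered reads, and 1 to 7 and 0 to 4 with 1 library left out. The core count was 0 at a pseudocount of 0.1 and with no filter. For A1d against PYTC, 2 and 0, they were 18 and 2 with library weights, 1 in the region with no filter, neither of the 2 called otherwise, 0 in the region at a pseudocount of 0.1, a minimum of 5 FPKM, with only the 6 libraries compared or with voom, and 0 to 3 and 0 to 2 with 1 library left out. Leaving out A1d replicate 1 and PYTC replicate 1 together, chosen after the data were seen, gave 39 and 14, 12 and 6, and 18 and 5 for the 3 comparisons in that order, beside 34.7%, 9.46% and 15.0% of all tested genes. Of all tested genes voom called 6.56%, 2.24% and 1.39% in these comparisons. The cause of these shifts was not tested beyond the values given beside the results.

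With the replicate number as a block the counts were 5 and 1 for QZ1 against PYTC, 2 and 0 for QZ1 against A1d, and 0 and 0 for A1d against PYTC. The block ended the calls of MD10G1174400 (limma adjusted p = 0.0823) and MD10G1178900 (0.0575) for QZ1 against PYTC, MD10G1183500 (0.0892) and MD10G1193000 (0.0648) for QZ1 against A1d, and MD10G1198000 (0.0719) and MD10G1198200 (0.0811) for A1d against PYTC. Same-numbered libraries did not deviate together, with correlations of -0.178 to 0.042, so the numbers were not taken as pairs. Genes on in one rootstock and off in another, 1 in the main count, were 0 at a minimum of 5 FPKM and 1 to 2 with 1 library left out, being 2 without PYTC replicate 2 or A1d replicate 3. Of 223 combinations of an alternative and a called fold change, 145 kept the call, 78 lost it and 0 changed direction. Low genes such as MD10G1181800 and MD10G1199100 are limited by their reads, and 68 genes of the region had reads but missed the FPKM level needed for the test.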
